A study of Homo sapiens with 56 samples.

Results

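The mitochondrial ribosomal proteins are the nuclear-encoded proteins that, with RNA made in the mitochondrion, build the ribosome inside that organelle. The members described here are the protein-coding genes whose symbol is MRPL or MRPS followed by a number, with or without a trailing letter. The annotation used (GENCODE release 29) holds 78 of them, and 76 of these were among the 16485 genes of the count table for HCT116, DLD1, LoVo and SW948 and 77 among the 16454 genes of the table for HT29, SKCO1 and SW1417. MRPL23 in both tables and MRPL45 in the first were not analysed here. Of the 78, 51 code for proteins of the large subunit and 26 for proteins of the small subunit, and MRPS36 carries the family name although its protein is known as a component of the 2-oxoglutarate dehydrogenase complex. Despite their symbols, MRPS30 and MRPS18A belong to the large subunit. All 7 lines are established human colorectal cancer lines, labelled wild-type, and each was given 10 mM 2-methylisocitrate (2-MiCit), a metabolite, or water, the vehicle of the control cultures. There were 4 libraries of each of the 14 groups, 56 in all, and each library measured polyadenylated RNA of a whole culture. How long the cells were treated is not stated. Nor do the labels tell whether the libraries of a group stem from different cultures, so the p-values speak to the spread among the libraries and that spread may be technical.

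Mitochondria keep their own ribosomes to translate a small set of mRNAs from mitochondrial DNA, all of which code for core subunits of the oxidative phosphorylation complexes. The large subunit holds the site where peptide bonds form and the exit tunnel, and the small subunit binds the mRNA and decodes it. All the protein subunits are made in the cytosol and imported. Many descend from bacterial ribosomal proteins, while others are found only in mitochondrial ribosomes. Dividing cells, colorectal cancer cells among them, have to make new mitochondrial ribosomes as they grow.

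The main difference was in HCT116: 58 of the 76 members tested (76.3%) fell in 2-MiCit cultures, by 10.9% to 36.2% with a median of 22.0%, and none rose. Among all genes tested in HCT116, 18% were called lower and 19% higher. In SKCO1, 22 of 77 members fell, by 6.15% to 14.2%, and 1 (MRPS6) rose, against a background of 10.8% of genes called lower and 8.1% called higher. In LoVo, 3 of 76 members fell, against a background of 0.702% of genes lower and 1.59% higher. No member was called in DLD1 or SW948, where 0% of genes were called lower in either line and 0.148% and 0% were called higher. None was called in HT29, where 3.02% of genes were lower and 4.65% higher, or in SW1417, where the shares were 4.05% and 2.94%. A gene was called where the Benjamini-Hochberg adjusted p of edgeR's quasi-likelihood test, taken over all genes of that line, was below 0.05, and every fold change is 2-MiCit over control. Because cultures were measured in bulk, fewer cells with a transcript and less of it per cell cannot be told apart.

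The size and side of the shift differed from line to line. In the first table the median log2 fold change of the members was −0.32 in HCT116, −0.32 in DLD1, −0.19 in LoVo and 0.21 in SW948, and in the second it was −0.03 in HT29, −0.07 in SKCO1 and −0.01 in SW1417, while the median over all genes tested was 0.03 in HCT116 and closer to 0 in every other line. The estimate was negative for 72 of 76 members in HCT116, 75 of 76 in DLD1 and 75 of 76 in LoVo, but for 6 of 76 in SW948. In the second table it was negative for 57 of 77 members in HT29, 68 of 77 in SKCO1 and 51 of 76 in SW1417. DLD1 thus had the same median as HCT116 with no call, and SW948 was the only line with a positive median. At an unadjusted p below 0.05, 35 members were lower and 0 higher in DLD1, where 1171 of all 13551 genes were lower and 1227 higher. In SW948, 0 members were lower and 10 higher, beside 409 genes lower and 479 higher of 13334. The members numbered 12 lower and 1 higher in HT29, with 1547 genes lower and 1813 higher of 13887, and 10 lower and 1 higher in SW1417, with 1550 lower and 1408 higher of 14089. DESeq2, run as another tool, called 1 member lower in DLD1 (0.945% of all genes), 10 in LoVo (2.98%), 0 in SW948 (0%), 4 in HT29 (4.54%) and 0 in SW1417 (4.15%). A single fit over the lines of a table, which pools their spread, called 31 members lower in HCT116 (10.8% of all genes), 15 in DLD1 (3.92%) and 12 in HT29 (7.89%).

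**Figure D1:**
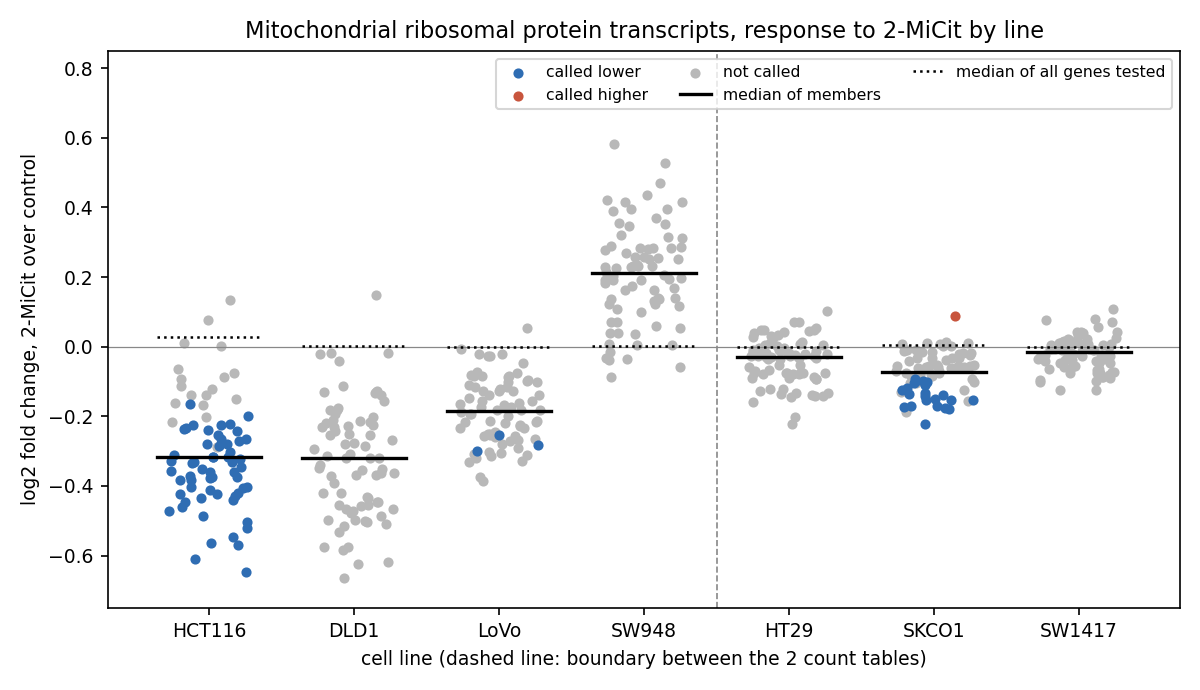
Log2 fold change of each member (2-MiCit over control, y axis) in the 7 lines (x axis), with called members marked and the median of the members and of all genes drawn; MRPL45 is left out. HCT116 and DLD1 have the same member median of −0.32, and SW948 lies on the positive side with a median of 0.21.

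Some libraries stood apart from the rest of their group in the level of the members, most of all in DLD1, SW948 and LoVo. The share of all counts that fell on members was 0.538 ± 0.034% in 2-MiCit and 0.631 ± 0.022% in control libraries of HCT116 (SD, n = 4 each, as for the other lines). It was 0.493 ± 0.039% in 2-MiCit and 0.587 ± 0.096% in control libraries of DLD1, and 0.489 ± 0.019% in 2-MiCit and 0.539 ± 0.047% in control libraries of LoVo. The order was the other way round in SW948, with 0.616 ± 0.077% in 2-MiCit and 0.553 ± 0.031% in control libraries. The wide spread in DLD1 and SW948 came with 1 library each: DLD1 control 1 and SW948 2-MiCit 2 both held 0.728% of their counts on members. Relative to the mean of its line, the median member was higher by 0.54 on the log2 scale in DLD1 control 1 and by 0.49 in SW948 2-MiCit 2. The same libraries were high for other short, abundant transcripts: cytosolic ribosomal proteins were higher by 0.75 and 0.68, and nuclear subunits of complex I by 0.83 and 0.72. LoVo control 4 stood apart less far, with 0.599% of counts on members and a member median higher by 0.30. Libraries of HCT116 also differed within their groups. On the same scale the median member was at −0.29 in 2-MiCit 4 and −0.02 in 2-MiCit 3. It was at 0.24 in control 1 and 0.08 in control 4. Cytosolic ribosomal proteins were at −0.28, 0.09, 0.20 and −0.02 in these HCT116 libraries. In the second table the groups were tighter, with 0.456 ± 0.012% in 2-MiCit and 0.463 ± 0.0063% in control libraries of HT29, 0.449 ± 0.0068% in 2-MiCit and 0.466 ± 0.0051% in control libraries of SKCO1, and 0.438 ± 0.0081% in 2-MiCit and 0.439 ± 0.0055% in control libraries of SW1417. Values without DLD1 control 1, SW948 2-MiCit 2 and LoVo control 4 stand beside the results of those lines. In HCT116, 50 members were lower without 2-MiCit 4 and 51 without control 1, against 58 with all libraries.

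**Figure D2:**
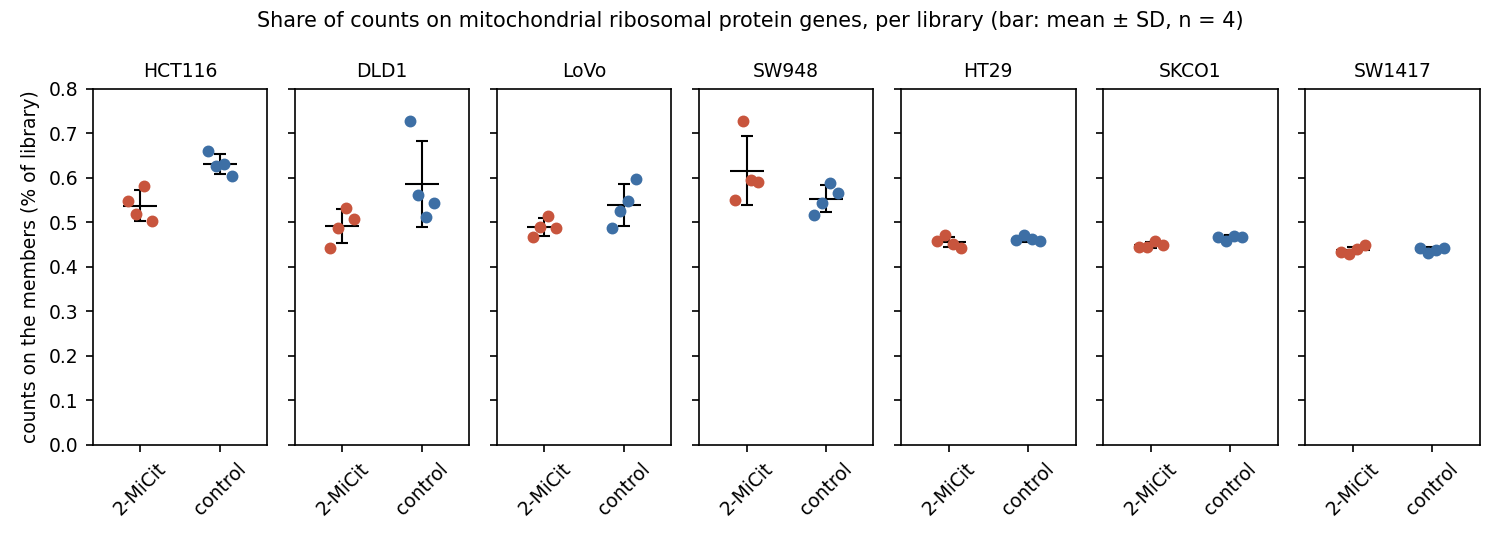
Percent of each library's counts that fell on the members (y axis), 1 point per library, with 2-MiCit left of control in each line (x axis); bars are the mean ± SD (n = 4). DLD1 control 1 and SW948 2-MiCit 2 lie at 0.728%, above the other libraries of their groups, and the 2 groups of HCT116 do not overlap.

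A library held 13.8 to 19.4 M counts for the lines of the first table and 29.1 to 45.4 M for those of the second, so members were measured with less counting error in HT29, SKCO1 and SW1417. Apart from MRPL45, no member had fewer than 187 counts in any library. MRPL45 lay between 0 and 2.12 CPM, counts scaled by library size, failed the filter on low counts in SW1417, and was not called in HT29 (adjusted p = 0.391) or SKCO1 (adjusted p = 0.395). Colorectal epithelial markers were above 1 CPM for 6 of 10 in HCT116, where KRT20 and CDX1 were at 0, for 9 in DLD1, where CDX1 was at 0, for 9 in LoVo and HT29 and for all 10 in SW948, SKCO1 and SW1417. In HCT116 these markers summed to 6388–7283 CPM in 2-MiCit and 4575–5069 CPM in control libraries, and their part in the members' result was not tested. Of the marker lists for other cell types, fibroblast markers summed to at most 22.9 CPM in any library and endothelial markers to at most 2.3 CPM. These sums rest on few genes. Of 8 fibroblast markers, 4 were in the first table and 3 in the second, and of 5 endothelial markers 2 were in each. Of 9 leukocyte markers, 3 were in the first table and 4 in the second. CD68 was above 1 CPM in all 7 lines, LYZ in LoVo, SW948, HT29, SKCO1 and SW1417, and CD14 in HT29. The sum of the list was highest in HT29, at 1790–1876 CPM in 2-MiCit and 1696–1764 CPM in control libraries. In SW948 it was 892–1129 CPM in 2-MiCit and 935–1117 CPM in control libraries.

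The members differed widely in level per length of transcript. In CPM per kilobase, averaged over the control groups of the first table, MRPL51 had 289.2, MRPL3 208 and MRPL12 187, and MRPS14 had 12.3, MRPL50 14.4 and MRPL22 14.5. In the second table the highest were MRPL49 with 262, MRPL51 with 181 and MRPL3 with 168, and the lowest were MRPL45 with 0.605, MRPL50 with 7.91 and MRPS14 with 10.4. MRPL51, a large-subunit protein found only in mitochondrial ribosomes, and MRPL3, kin of the bacterial protein that lies near the peptidyl transferase site, were among the 3 highest in both tables, and MRPS14 and MRPL50 among the 3 lowest.

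In HCT116, 41 of 49 large-subunit members fell, with a median of −0.33, and 17 of 26 small-subunit members, with a median of −0.28. The shares of the 2 subunits were not compared by a test. MRPS36 was not called, with a log2 fold change of 0.08 ± 0.11 (SE; adjusted p = 0.632). Members classed with bacterial kin fell in 37 of 45 cases (median −0.35) and members classed without in 21 of 30 (median −0.28). MRPS18A and MRPS18B were classed without such kin, although their paralog MRPS18C was classed with it. For 54 of 76 members the 4 control libraries lay wholly above the 4 2-MiCit libraries, against 17.2% of all genes tested, and for 0 they lay wholly below, against 18.4%. Without any single library, 49 of the 58 calls held, and 30 held under every alternative that was tried.

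Within the large subunit, the largest changes in HCT116 were in MRPL12, MRPL20, MRPL53, MRPL41 and MRPL21. MRPL12, kin of the bacterial stalk protein that recruits translation factors (ENSG00000262814, chr17:81703357-81707526, plus strand, GRCh38), had 177, 159, 209 and 161 CPM in 2-MiCit and 300.1, 269, 279 and 258 CPM in control libraries. The groups did not overlap, and the lowest control library stood well above the highest 2-MiCit library. Its log2 fold change was −0.65 ± 0.09 (SE), so it fell by 36.2% (adjusted p = 0.000398). MRPL20, kin of a bacterial protein needed early in assembly of the large subunit (ENSG00000242485, chr1:1401908-1407313, minus strand), had 84.2, 74.3, 94.8 and 73.6 CPM in 2-MiCit and 135, 119, 129.8 and 114 CPM in control libraries. All 4 2-MiCit libraries again lay under all 4 control libraries. MRPL20 fell by 34.4%, with a log2 fold change of −0.61 ± 0.09 (adjusted p = 0.000549).

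MRPL53 and MRPL41, both of the kind found in mitochondrial ribosomes without a bacterial counterpart, moved by similar amounts. MRPL53 (ENSG00000204822, chr2:74471958-74473322, minus strand) had 18.8, 15.6, 19.5 and 15.3 CPM in 2-MiCit and 30.0, 23.1, 25.4 and 24.4 CPM in control libraries. Its log2 fold change was −0.57 ± 0.11 (adjusted p = 0.00245). The groups were apart, on the smallest counts of these 5 members. MRPL41 (ENSG00000182154, chr9:137551199-137552555, plus strand) had 52.2, 45.6, 61.2 and 43.4 CPM in 2-MiCit and 81.4, 74.0, 77.4 and 66.4 CPM in control libraries, and fell with a log2 fold change of −0.56 ± 0.11 (adjusted p = 0.00251). For MRPL21, kin of a bacterial protein of the large subunit (ENSG00000197345, chr11:68891276-68903835, minus strand), the values were 44.2, 40.5, 46.1 and 39.7 CPM in 2-MiCit and 67.7, 59.1, 64.99 and 57.6 CPM in control libraries. Its groups were apart too, and its log2 fold change of −0.55 ± 0.07 had an adjusted p of 0.000362.

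MRPL3 (ENSG00000114686, chr3:131462212-131502983, minus strand) changed less but had little spread. It had 192, 191, 193 and 188 CPM in 2-MiCit and 264, 257, 251 and 269.8 CPM in control libraries of HCT116. The 4 2-MiCit libraries lay within a few CPM of each other and far below every control library. MRPL3 fell by 26.6% (log2 fold change −0.45 ± 0.04, adjusted p = 5.24e-05). MRPL58, a peptidyl-tRNA hydrolase that became a fixed part of the large subunit and releases stalled peptides, had 49.97, 48.5, 53.7 and 42.4 CPM in 2-MiCit and 62.0, 69.1, 64.9 and 62.7 CPM in control libraries, without overlap. Its log2 fold change was −0.41 ± 0.08 (adjusted p = 0.00193). MRPS30, a large-subunit protein in spite of its name, had 107, 112, 102 and 105 CPM in 2-MiCit and 129.6, 125, 119 and 128 CPM in control libraries. The groups were apart although the change was smaller, at −0.23 ± 0.05 (adjusted p = 0.00419). Of the members at the ends of the range of levels, MRPL51 was called lower (−0.31 ± 0.10, adjusted p = 0.04) but lost the call without any of 6 libraries, with an adjusted p of up to 0.103, and MRPL50 was not called (−0.14 ± 0.08, adjusted p = 0.211), nor was MRPS14 of the small subunit (−0.09 ± 0.08, adjusted p = 0.424).

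In the small subunit, the largest change in HCT116 was in MRPS34, a protein found only in mitochondrial ribosomes (ENSG00000074071, chr16:1771890-1773155, minus strand). It had 113.5, 107, 132 and 97.8 CPM in 2-MiCit and 178, 164, 162 and 142 CPM in control libraries, so that the groups did not overlap. Its log2 fold change was −0.52 ± 0.095 (adjusted p = 0.00203). MRPS12, kin of the bacterial protein at the decoding site that is known for streptomycin resistance, had 23.1, 25.9, 26.0 and 21.1 CPM in 2-MiCit and 32.5, 32.9, 35.0 and 28.8 CPM in control libraries. It fell with a log2 fold change of −0.43 ± 0.09 (adjusted p = 0.0041), again with groups apart. The genes MRPS18A, MRPS18B and MRPS18C, paralogs of each other, were not alike in their calls. MRPS18C fell (−0.42 ± 0.09, adjusted p = 0.0053), MRPS18A was called lower (−0.24 ± 0.08, adjusted p = 0.0348) but lost the call without any of 6 of the 8 libraries, and MRPS18B was not called (−0.16 ± 0.07, adjusted p = 0.087).

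MRPS10, kin of a bacterial protein of the head of the small subunit (ENSG00000048544, chr6:42206801-42217865, minus strand), had the highest estimate of all members in HCT116. It had 118, 119, 121 and 109 CPM in 2-MiCit and 107, 105, 103 and 110.4 CPM in control libraries. The groups overlapped by 1 library, and the log2 fold change of 0.13 ± 0.05 was not called (adjusted p = 0.0561).

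**Figure D3:**
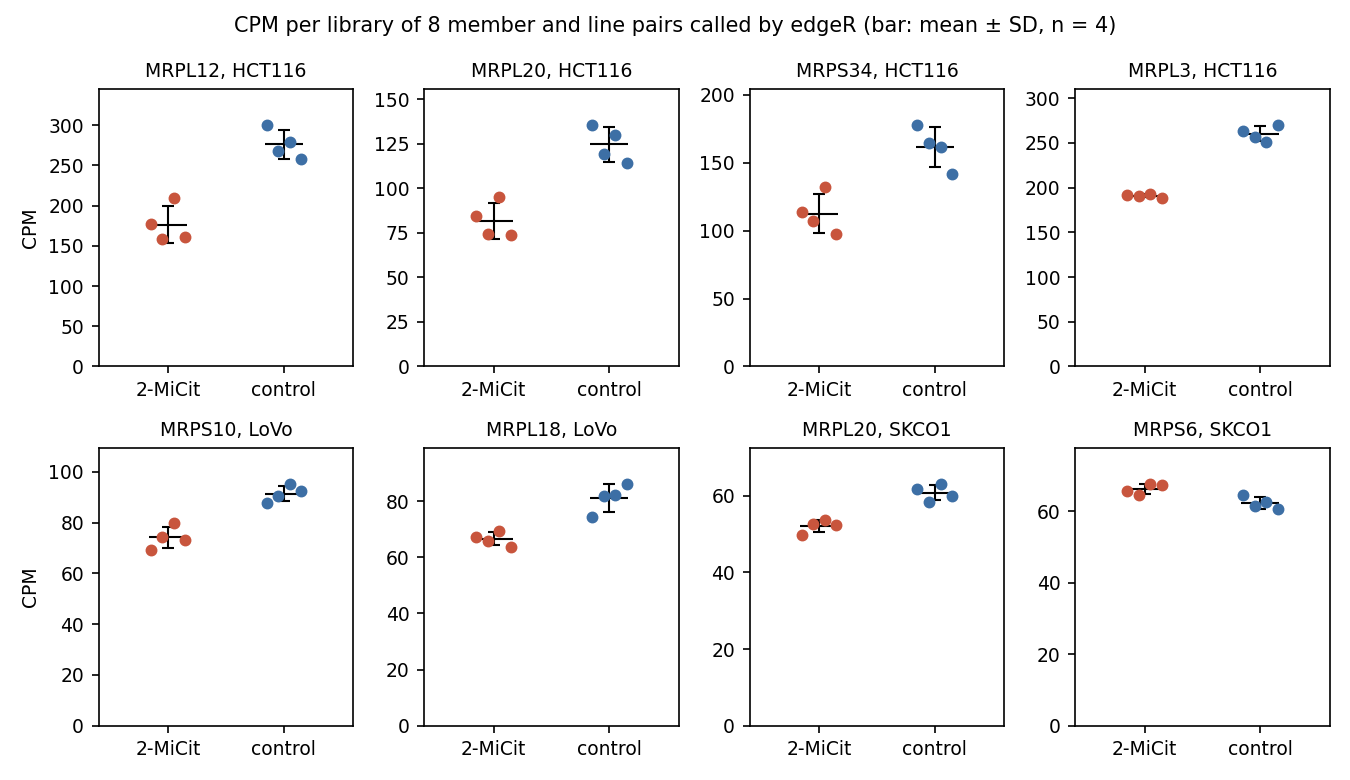
CPM of each library (y axis, from 0) for MRPL12, MRPL20, MRPS34 and MRPL3 in HCT116, MRPS10 and MRPL18 in LoVo, and MRPL20 and MRPS6 in SKCO1, with 2-MiCit left of control; points are libraries and bars the mean ± SD (n = 4). The 2-MiCit libraries lie under the control libraries in all panels but that of MRPS6. The fold change is largest for MRPL12, at 159 to 209 CPM against 258 to 300.1 CPM.

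Promoter sequence is shown for members that changed in more than one line or changed most, because the members moved together and 69 of the 78 had a promoter in the RefSeq table (build GRCh38.p14). Each run is the 100 bases before the annotated start, 5′ to 3′ on the gene's strand, with capitals for CCGGAAG, the core of sites of ETS factors such as GABPA, or AAGATGGCG, the core of a YY1 site, on either strand (reverse complements CTTCCGG and CGCCATCTT). The runs lie at chr1:1407294-1407393 for MRPL20, chr3:131502972-131503071 for MRPL3, chr16:1773135-1773234 for MRPS34 and chr17:57850045-57850144 for MRPS23, all on the minus strand, and at chr14:22829787-22829886 for MRPL52 and chr17:81703267-81703366 for MRPL12 on the plus strand.
MRPL20: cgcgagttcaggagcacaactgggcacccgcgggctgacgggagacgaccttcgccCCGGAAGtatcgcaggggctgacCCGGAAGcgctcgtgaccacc
MRPL3: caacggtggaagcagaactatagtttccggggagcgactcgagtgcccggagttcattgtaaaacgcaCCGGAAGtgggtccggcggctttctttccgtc
MRPS34: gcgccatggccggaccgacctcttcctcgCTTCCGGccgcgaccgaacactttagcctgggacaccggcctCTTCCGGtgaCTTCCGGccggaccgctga
MRPS23: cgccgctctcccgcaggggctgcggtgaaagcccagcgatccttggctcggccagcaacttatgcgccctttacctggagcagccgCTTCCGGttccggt
MRPL52: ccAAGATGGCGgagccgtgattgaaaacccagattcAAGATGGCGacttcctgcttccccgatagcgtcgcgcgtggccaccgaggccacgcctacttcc
MRPL12: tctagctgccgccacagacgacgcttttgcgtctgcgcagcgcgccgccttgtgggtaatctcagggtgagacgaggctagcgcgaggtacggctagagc
MRPL20 held the ETS letters 2 times and MRPL3 held them 1 time in the orientation of the gene, MRPS34 held them 3 times and MRPS23 1 time in the opposite orientation, MRPL52 held the YY1 letters 2 times, and MRPL12 held neither motif.

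Searched over 250 bases before to 50 after the start on both strands, the ETS letters were in 29 of 69 member promoters (42.0%), against 14.2% of 15842 promoters of protein-coding genes. The YY1 letters were in 13 (18.8%), against 2.74%. For a site of NRF1, which is known to act on nuclear genes for mitochondrial proteins, searched as GCGC, any base and TGCGC, the shares were 11.6% of members and 8.57% of all. The E-box CACGTG was in 8.70% of members and 8.88% of all, TATAAA in 2.90% and 9.63%, and the ATF4 letters TGATGNAAN in 1.45% and 2.53%. TGACGTCA, the cyclic AMP response element, was in 0 of 69 member promoters, against 2.59% of all. In HCT116 the median log2 fold change was −0.32 for the 29 members with the ETS letters and −0.32 for the 39 tested without, and 23 and 29 of these fell. For the YY1 letters, 9 of 13 members with them fell (median −0.24) and 43 of 55 without (median −0.35). A match is a run of letters and says nothing of binding in these cells.

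In SKCO1 the called decreases, of at most 14.2%, rested on tighter libraries than those of HCT116, and the sizes in these lines, which are in different tables, were not compared by a test. Of the large subunit, 15 of 50 members fell, and of the small subunit 7 of 26, with 1 higher. The control libraries lay wholly above the 2-MiCit libraries for 26 of 77 members, against 12.5% of all genes, and wholly below for 1, against 10.4%. Both lines called 19 members lower, which is 86.4% of the members lower in SKCO1 and 32.8% of those lower in HCT116. Of all members tested, 76.3% were lower in HCT116 and 28.6% in SKCO1, and the overlap was not tested against these shares. MRPL20, the most changed of the called members, had 49.9, 52.7, 53.6 and 52.4 CPM in 2-MiCit and 61.8, 58.4, 63.0 and 60.1 CPM in control libraries. The groups did not overlap, and MRPL20 fell by 14.2% (log2 fold change −0.22 ± 0.03, adjusted p = 0.000412). Of the 23 calls in SKCO1, 12 held without any single library and 10 under every alternative that was tried.

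Next in size among the called members of SKCO1 were MRPL52, MRPL2, MRPS23, MRPL39 and MRPL37. The estimate of MRPS12, at −0.19 ± 0.13, was as large but was not called (adjusted p = 0.389). MRPL52, a large-subunit protein found only in mitochondrial ribosomes (ENSG00000172590, chr14:22829879-22835037, plus strand), had 43.2, 43.0, 44.8 and 43.6 CPM in 2-MiCit and 50.4, 48.3, 49.1 and 49.99 CPM in control libraries. Its log2 fold change was −0.18 ± 0.03 (adjusted p = 0.000935), and every 2-MiCit library was below every control library. MRPL2, kin of the bacterial protein that binds close to the peptidyl transferase centre, had 29.2, 33.6, 34.9 and 32.7 CPM in 2-MiCit and 36.9, 37.8, 37.5 and 35.4 CPM in control libraries. It fell by a similar amount (−0.18 ± 0.05, adjusted p = 0.0183) with a wider spread, since the highest 2-MiCit library lay just under the lowest control library, and the call was lost without either of 2 libraries. MRPS23, a small-subunit protein (ENSG00000181610, chr17:57834781-57850056, minus strand), had 61.5, 62.2, 64.0 and 64.1 CPM in 2-MiCit and 69.3, 72.8, 71.0 and 71.0 CPM in control libraries. Its groups were clearly apart (−0.17 ± 0.03, adjusted p = 0.000728).

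MRPL39 and MRPL37, both of the large subunit and both without a bacterial counterpart, completed the 6 largest called decreases of SKCO1. MRPL39 had 23.0, 24.3, 24.6 and 24.2 CPM in 2-MiCit and 25.8, 27.1, 27.6 and 27.7 CPM in control libraries (−0.17 ± 0.04, adjusted p = 0.00861). MRPL37, at a higher level, had 161, 164, 179.6 and 173 CPM in 2-MiCit and 194, 186, 197 and 185 CPM in control libraries (−0.17 ± 0.03, adjusted p = 0.00333). Neither had overlapping groups. MRPL3 (−0.10 ± 0.02, adjusted p = 0.0046), MRPL58 (−0.15, adjusted p = 0.0093) and MRPS10 (−0.11 ± 0.03, adjusted p = 0.0105) fell as well, and MRPS10 was thus lower in SKCO1 though not in HCT116. MRPL12 fell too (−0.15 ± 0.04, adjusted p = 0.0172), but its groups overlapped and the call was lost without any of 3 libraries.

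MRPS6, kin of a bacterial small-subunit protein (ENSG00000243927, chr21:34073224-34143034, plus strand), was the one member called higher in any line. In SKCO1 it had 65.8, 64.6, 67.6 and 67.5 CPM in 2-MiCit and 64.6, 61.5, 62.6 and 60.8 CPM in control libraries. The second 2-MiCit library and the first control library were level as rounded, so the groups were apart by almost nothing, and the log2 fold change of 0.09 ± 0.03 stood at the threshold (adjusted p = 0.05 as rounded). Without any of 6 of the 8 libraries the call was lost, with an adjusted p of up to 0.127. MRPS6 overlaps SLC5A3 on the same strand and has 2 annotated pseudogenes. DESeq2, a fit without the filter on low counts, the pooled fit and the authors' own scaling of this table did not call it, and with that scaling 11 members were lower.

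LoVo had 3 called members, all of which fell: MRPS10, MRPL18 and MRPL35. MRPS10 had 69.4, 74.4, 79.7 and 73.4 CPM in 2-MiCit and 87.9, 90.5, 95.1 and 92.4 CPM in control libraries. The groups were apart (log2 fold change −0.30 ± 0.06, adjusted p = 0.0285), in contrast with the overlapping groups of this gene in HCT116. MRPL18, which is known to help carry a cytosolic rRNA into mitochondria (ENSG00000112110, chr6:159789812-159798436, plus strand), had 67.2, 65.9, 69.5 and 63.8 CPM in 2-MiCit and 74.3, 81.8, 82.2 and 86.0 CPM in control libraries (−0.28 ± 0.06, adjusted p = 0.0393). MRPL35, of the large subunit (ENSG00000132313, chr2:86199355-86213794, plus strand), had 62.1, 63.0, 66.3 and 69.1 CPM in 2-MiCit and 77.1, 74.8, 80.8 and 77.9 CPM in control libraries (−0.25 ± 0.06, adjusted p = 0.0442). All 3 had groups apart, as did 10 of the 76 members on the lower side, against 6.43% of all genes, and 0 on the higher side, against 6.98%. None of the 3 calls held when libraries were left out one at a time: MRPS10 lost its call without any of 5 libraries, and MRPL18 and MRPL35 without any of 6. The count of members lower was 20 without control 1, where 3.91% of all genes were lower, and 0 without 2-MiCit 1, 2-MiCit 2, 2-MiCit 4, control 2 or control 3. Without control 4, which stands apart, it was 3, with a median of −0.12.

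MRPL18 was the only member called in 3 lines. In HCT116 it had 99.1, 95.9, 98.1 and 86.1 CPM in 2-MiCit and 125, 120.4, 116 and 114 CPM in control libraries (−0.33 ± 0.06, adjusted p = 0.00155). In SKCO1 the values were 64.0, 64.4, 69.6 and 67.3 CPM in 2-MiCit and 70.3, 72.3, 71.7 and 74.9 CPM in control libraries (−0.12 ± 0.03, adjusted p = 0.0171), and the call was lost without either of 2 libraries. The groups were apart in each of the 3 lines. Over all 7 lines, 40 members were called lower in 1 line, 20 in 2 lines and 1 in 3, 1 was called higher in 1 line, and 15 were called in none. No member was called in opposite directions, where only 1 was called higher at all. In HCT116 by itself 76.3% of the members tested were called lower. The shares of all genes called in 1, 2 or 3 lines were not computed. Besides those already given, MRPL4, kin of a bacterial protein of the exit tunnel, fell in HCT116 (−0.46 ± 0.07, adjusted p = 0.000673) and SKCO1 (−0.15 ± 0.03, adjusted p = 0.0038). MRPS15, of the small subunit, fell in HCT116 (−0.44 ± 0.07, adjusted p = 0.000813) and SKCO1 (−0.10 ± 0.02, adjusted p = 0.0102), and so did MRPS9, likewise of the small subunit (HCT116 −0.36 ± 0.06, adjusted p = 0.0012; SKCO1 −0.10 ± 0.03, adjusted p = 0.0326). The call of MRPS9 in SKCO1 was lost without any of 6 libraries, with an adjusted p of up to 0.106.

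**Figure D4:**
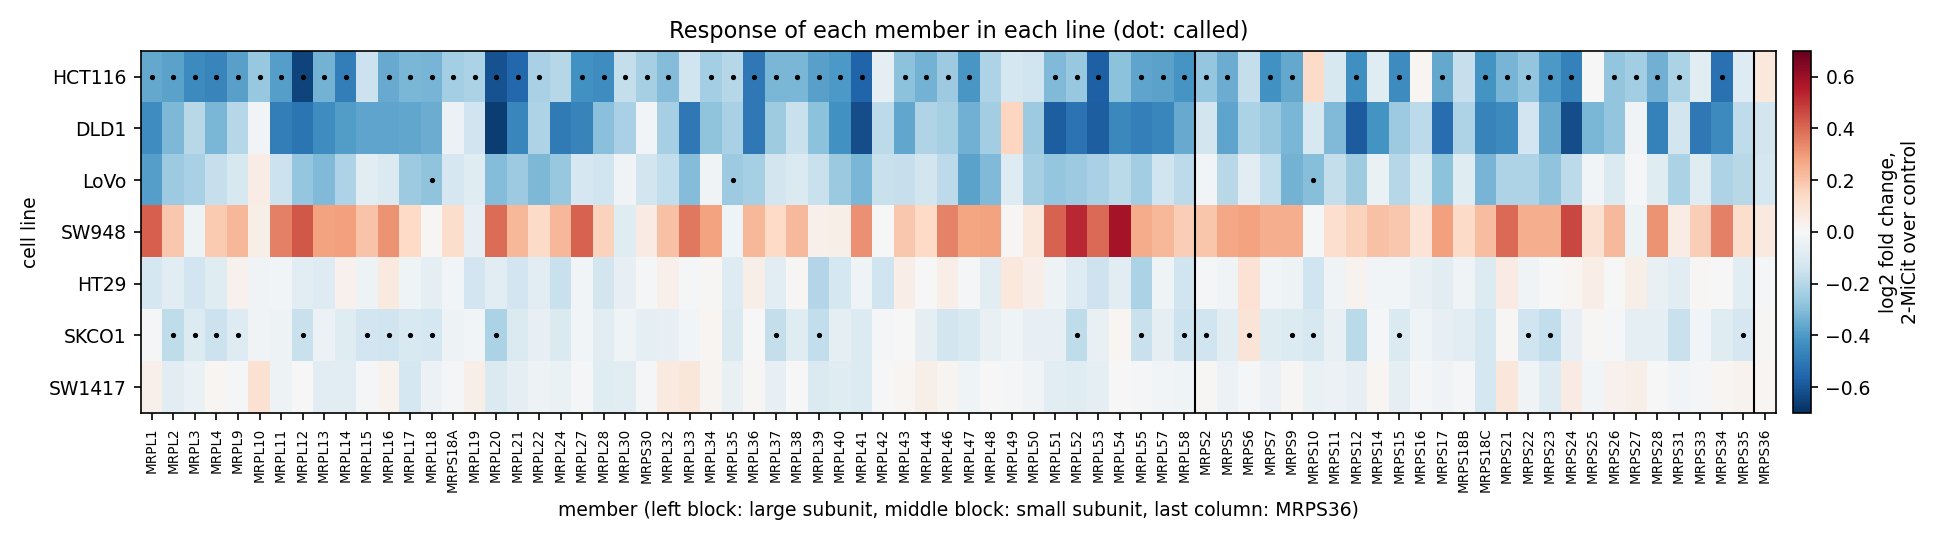
Log2 fold change (colour, 2-MiCit over control) of every member but MRPL45 (columns, large subunit left of small subunit, MRPS36 last) in the 7 lines (rows), with a dot where the member was called. HCT116 holds 58 dots, SKCO1 23 and LoVo 3, and SW948 is the row with mostly positive values, 70 of 76.

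DLD1 and SW948 had members far from no change but no calls, and in each line 1 library lay far from the others. In DLD1, MRPL20 had 68.5, 77.01, 90.3 and 84.0 CPM in 2-MiCit and 201, 109, 91.0 and 106 CPM in control libraries. The groups did not overlap, yet 2-MiCit 3 and control 3 were almost level and the first control library was far above the others (log2 fold change −0.66 ± 0.23, adjusted p = 0.253). For 16 of 76 members the 2-MiCit libraries of DLD1 lay wholly under the control libraries, against 6.1% of all genes, and for 1 wholly above, against 7.75%. That one, named after its values were seen, was MRPL49, with 85.8, 82.5, 82.9 and 90.8 CPM in 2-MiCit and 71.5, 78.5, 77.2 and 81.2 CPM in control libraries (0.15 ± 0.07, adjusted p = 0.298). Without DLD1 control 1 the median log2 fold change of the members was −0.18, with 0 called.

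In SW948 the values ran the other way. MRPL12 had 165, 357, 197 and 193 CPM in 2-MiCit and 146, 150.4, 196 and 182 CPM in control libraries (0.44 ± 0.23, adjusted p = 0.522). MRPL52 had 31.7, 68.2, 34.4 and 33.5 CPM in 2-MiCit and 26.2, 28.7, 31.6 and 29.7 CPM in control libraries (0.53 ± 0.23, adjusted p = 0.522). The second 2-MiCit library was far above the others for both genes, MRPL12 overlapped between groups, and MRPL52 was apart by little. For 5 members the 2-MiCit libraries lay wholly above the control libraries, against 2.49% of all genes, and for 0 wholly below, against 2.71%. MRPL3, by contrast, was level, with 184, 177, 187 and 178 CPM in 2-MiCit and 185, 193, 189 and 176 CPM in control libraries (−0.03 ± 0.06, adjusted p = 0.774). Without SW948 2-MiCit 2 the median of the members was 0.07, with 0 called.

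In HT29 and SW1417 the members lay close to no change. MRPL3 in HT29 had 171, 167, 163 and 153 CPM in 2-MiCit and 180.4, 179, 182 and 176 CPM in control libraries, apart but not called (−0.13 ± 0.04, adjusted p = 0.0588). It was one of 10 of 77 members with 2-MiCit wholly lower in HT29, against 7.31% of all genes, and in SW1417 there were 3 of 76, against 7.68%. On the higher side there was 1 member in HT29, against 9.02% of genes, and 2 in SW1417, against 6.58%. MRPL10, kin of the bacterial protein that anchors the stalk, had 59.6, 58.6, 62.5 and 57.1 CPM in 2-MiCit and 55.6, 55.5, 56.2 and 53.4 CPM in control libraries of SW1417. These groups were apart on the higher side without a call (0.11 ± 0.03, adjusted p = 0.0586). Leaving out single libraries gave 2 members lower in HT29 without 2-MiCit 1, beside 2.7% of genes, and 3 without 2-MiCit 2, beside 3.71%. In SW1417 it gave 3 of 77 members lower and 1 higher without 2-MiCit 4, beside 4.71% of genes lower.

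Whether the response differed between lines was tested by the interaction of treatment and line, within each table. Among HCT116, DLD1, LoVo and SW948, 28 of 76 members differed, against 18% of all genes. The lowest adjusted p values were those of MRPS21 (0.00408), MRPL3 (0.00452), MRPS10 (0.00673) and MRPL9 (0.00831). MRPS21, a small-subunit protein, had log2 fold changes of −0.32 ± 0.08 in HCT116, −0.45 ± 0.14 in DLD1, −0.22 ± 0.07 in LoVo and 0.40 ± 0.15 in SW948. MRPL9, kin of a bacterial protein of the large subunit, had −0.38 ± 0.07 in HCT116, −0.20 ± 0.10 in DLD1, −0.11 ± 0.08 in LoVo and 0.23 ± 0.10 in SW948. In both genes SW948 was the line on the positive side. The count of 28 was 7 without SW948 control 1 (12.5% of genes) or SW948 2-MiCit 2 (13.9%), 8 without SW948 control 2 (13.7%) and 18 without HCT116 2-MiCit 2 (13.8%) or HCT116 2-MiCit 4 (14.5%), so without those 3 libraries of SW948 the members' share was under that of all genes. It was 41 without DLD1 control 1 (20.6%), 44 without DLD1 control 3 (23.1%) and 45 without SW948 2-MiCit 1 (22.3%). With all libraries kept and replicate number as a block in the fit, it was 6 (10.4%), also under the share of all genes.

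Set against SW948, HCT116 had a lower fold change for 40 members (9.12% of all genes) and a higher one for 0 (9.6%), with a median difference of −0.50. DLD1 had a lower one for 43 (7.74%) and a higher one for 0 (5.49%), with a median difference of −0.52. Among them MRPL3 differed by −0.39 ± 0.08 between HCT116 and SW948 (adjusted p = 0.0006), and MRPS21 by −0.84 ± 0.17 between DLD1 and SW948 (adjusted p = 0.0093). The count for DLD1 against SW948 was 1 without any one of DLD1 control 1, DLD1 2-MiCit 1, SW948 control 1 or SW948 2-MiCit 2. It was 5 without DLD1 2-MiCit 2, 4 without SW948 control 2, 23 without DLD1 2-MiCit 4 and 22 without SW948 control 4. It reached 61 without DLD1 control 3. The count for HCT116 against SW948 was 19 without SW948 2-MiCit 2 or HCT116 2-MiCit 4, 22 without SW948 control 1, 23 without SW948 control 2 or HCT116 control 1 and 25 without HCT116 2-MiCit 2. That count reached 55 without DLD1 control 1. With replicate number as a block in the fit, the count was 21 for HCT116 against SW948 and 1 for DLD1 against SW948. Shares of all genes were not computed for these pairs in the fits without a library or with the block. These pairs share the SW948 libraries, so they are not independent. HCT116 and DLD1 differed for 0 members, against 3.13% of genes lower and 5.22% higher, and LoVo differed from SW948 for 0, against 0% lower and 0.038% higher. HCT116 and LoVo differed for 1, MRPS10, whose fold change was higher in HCT116 by 0.44 ± 0.09 (adjusted p = 0.00265), against 3.79% of genes higher and 2.25% lower. DLD1 and LoVo differed for 0, against 0.133% lower and 0.373% higher.

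Among HT29, SKCO1 and SW1417, 1 of 77 members, MRPL9, differed (adjusted p = 0.0391), against 5.49% of all genes, and the next in order, MRPS23 (0.0736), MRPL10 (0.0756) and MRPL19 (0.0796), were not called. MRPL9 was called lower in SKCO1 (−0.09 ± 0.03, adjusted p = 0.0232), though not without any of 3 libraries (adjusted p up to 0.0773), and its log2 fold change was 0.03 ± 0.03 in HT29 and −0.01 ± 0.02 in SW1417. HT29 had a higher fold change than SKCO1 for MRPL9 (by 0.13 ± 0.03, adjusted p = 0.0272) and MRPS23 (by 0.18 ± 0.05, adjusted p = 0.0394), against 2.45% of genes, and a lower one for 0, against 1.68%. HT29 had a lower one than SW1417 for MRPL19 (difference −0.19 ± 0.05, adjusted p = 0.0495), against 1.45% of genes, and a higher one for 0, against 1.99%. The call of MRPL19 was lost with RLE factors, without the filter on low counts, with the length trend removed and in 19 of the 24 fits without 1 library. The count of members higher in HT29 than in SKCO1 was 0 without SKCO1 control 3 and 3 without SKCO1 2-MiCit 3, with 1 or 2 in the other fits without a library. SKCO1 and SW1417 differed for 0 members, against 0.447% of genes lower and 0.578% higher. The count of members that differed in this table was 0 to 2 as single libraries were left out and 0 in 17 of these 24 fits. Lines of different tables were not compared by a test.

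The members have short transcripts, with a median length of 1033.5 bases (range 461 to 3332) against 1864 bases for 15072 protein-coding genes, and 7 were longer than that. Fold changes went with transcript length in some lines. Slopes and correlations over all genes use annotated genes with a mean log2 CPM of at least 1. Over these, the slope of the log2 fold change per doubling of length was 0.0517 in HCT116 and 0.0944 in DLD1. It was 0.0388 in LoVo and −0.0723 in SW948. Among the members the slope was 0.0732 in HCT116, 0.0921 in DLD1, 0.0202 in LoVo and −0.0943 in SW948. In the second table the slopes were close to 0, at 0.0105 over all genes and −0.0100 over members in HT29. For SKCO1 they were 0.0121 over all genes and 0.0295 over members, and for SW1417 0.00548 over all genes and 0.0064 over members. The largest slopes were in DLD1 and SW948, of opposite sign, where Pearson's r across all genes was 0.36 and −0.37. Genes are not independent replicates, and these are descriptions. Relative to the mean of the line, the level itself went down with length in DLD1 control 1 and SW948 2-MiCit 2. Their slopes were −0.202 and −0.157, and that of LoVo control 4 was −0.082. In HCT116 the slope was −0.077 in control 1, and it was 0.083 in 2-MiCit 4 and 0.051 in 2-MiCit 2. The part of these slopes in the results was not tested beyond the fits with the trend removed.

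In HCT116 the median of the members lay below that of other genes in every length class, with other genes taken at a mean log2 CPM of at least 1. The class of 2500 bases or more held only 2 members, 1 of them lower, with a median of −0.18 against 0.09. Under 750 bases, the median of the members was −0.37, with 13 of 17 lower, and that of genes other than members −0.03, with 23.7% lower. From 1000 to 1500 bases the medians were −0.36 for members, with 23 of 25 lower, and −0.02 for other genes, with 25.1% lower. From 1500 to 2500 bases they were −0.23, with 9 of 15 lower, and 0.01, with 20.9% lower. With the trend with length removed by a spline, 56 members were lower in HCT116 (median −0.29), 0 in DLD1 (median −0.28), 2 in LoVo, 0 in SW948 (median 0.18), 1 in HT29, 20 in SKCO1, with 1 higher, and 0 in SW1417. Members lower with the trend left in numbered 58 in HCT116 and 22 in SKCO1. Of all genes, the fit without the trend called 20% lower in HCT116, up from 18%, and 11.1% lower in SKCO1, up from 10.8%. Its share of genes lower was 4.21% for SW1417, 3.03% for HT29, 1.23% for LoVo and 0% for both DLD1 and SW948.

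**Figure D5:**
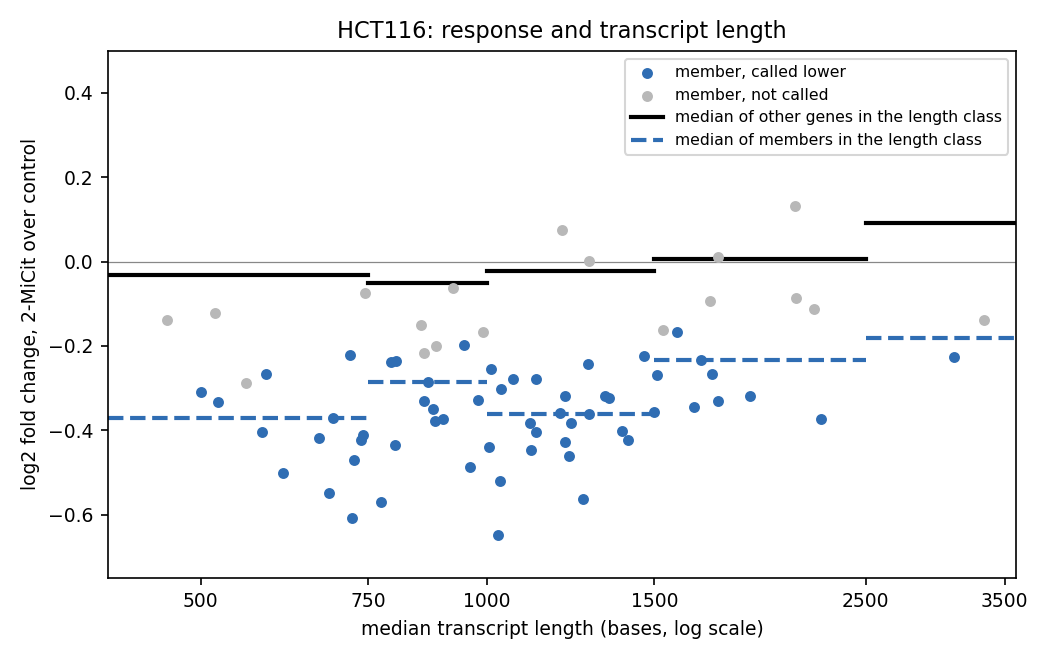
Log2 fold change in HCT116 (y axis, 2-MiCit over control) against median transcript length in bases (x axis, log scale) for each member (points), with the median of the members (dashed) and of the other genes (solid) in each length class. In the class from 1000 to 1500 bases the members have a median of −0.36 and the other genes −0.02.

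Other genes of mitochondrial translation were described from lists chosen with results of these data known, and their counts stand against 18% of all genes lower and 19% higher in HCT116 and 10.8% lower and 8.1% higher in SKCO1. Of 5 further subunits of the mitochondrial ribosome with other names, 4 fell in HCT116, with a list median of −0.35. DAP3, a GTP-binding protein of the small subunit, averaged 106.7 CPM in 2-MiCit and 141.4 CPM in control libraries of HCT116 (−0.41 ± 0.08, adjusted p = 0.0021). AURKAIP1 (−0.48) and PTCD3 (−0.30), both of the small subunit, were among those called. Of 14 translation factors 7 fell (median −0.14), among them the elongation factor TUFM (−0.37 ± 0.06), and of 27 assembly factors 13 fell (median −0.28), among them the rRNA methyltransferase MRM3 (−0.68 ± 0.06). Of 15 genes for mitochondrial transcription and RNA processing 9 fell (median −0.26), such as SLIRP (−0.65), an RNA-binding protein that protects mitochondrial mRNAs, and 1 rose, MTERF1 (0.23).

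The mRNAs encoded by mitochondrial DNA, which these ribosomes translate, had a median of 0.41 in HCT116, where 4 of 13 rose, 0 fell and the others were not called, against 19% of all genes higher and 18% lower. The largest called increase was that of MT-CYB, a subunit of complex III (0.95 ± 0.23). Cytosolic ribosomal proteins fell in 26 of 77 cases and rose in 2 (median −0.20). Nuclear subunits of complex I fell in 3 of 36 cases (8.3%), under the share of all genes, and rose in 1 (median −0.17). In SKCO1, 10.8% of all genes were lower and 8.1% higher. There 1 of the 5 further subunits fell (DAP3, −0.14), as did 5 of 14 translation factors and 6 of 15 genes for transcription and RNA processing. Of 27 assembly factors 2 fell (7.4%), under the share of all genes, and 1, SPG7, rose. None of 13 mitochondrial mRNAs was called there (median 0.15), and 17 of 77 cytosolic ribosomal proteins and 6 of 34 complex I subunits fell.

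Reads of some members may be shared with near-identical copies: 34 members have 75 annotated pseudogenes, and whether counting used strand is not stated in the sources used here. Of the members with no pseudogene and no overlapping gene on the same strand, 28 of 31 fell in HCT116 (median −0.36) and 11 of 31 in SKCO1. Among the members given with library values, MRPL2, MRPL3, MRPL20, MRPL37 and MRPL53 have 1 pseudogene each, MRPS6, MRPS10 and MRPL49 have 2 and MRPL35 has 4. MRPS21 and MRPL9, given by their fold changes, have 8 and 1. MRPL3, MRPL9, MRPL12, MRPL20, MRPL53 and MRPS6 overlap another annotated gene on the same strand, and MRPL2, MRPL9, MRPL20, MRPL37, MRPL49, MRPS6 and MRPS12 one on the opposite strand, so that some of their reads may belong to the partner.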

How the data were processed

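RNA of 7 lines was sequenced in 56 libraries, from a stranded mRNA kit per the labels' protocols. The analysis starts from 2 deposited tables of whole-number counts. The normalized values deposited beside them, a linear signal, served only to obtain the authors' scaling of the second table. The submitters' processing notes name Salmon 1.5.0 and DESeq2, after bcl2fastq 2.20.0 and Trimmomatic 0.39, and the build GRCh38.p13. Salmon shares reads among matching transcripts, so members with near-identical copies are uncertain.

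Counts were filtered (filterByExpr), TMM-scaled and tested line by line with edgeR 4.0.16 in R 4.3.3 (robust quasi-likelihood F test, two-sided, Benjamini-Hochberg below 0.05 over all genes). CPM use the TMM factors. Differences between lines were treatment-by-line terms of 1 fit per table. The steps were tested on simulated data. Transcript length is the gene's median in GENCODE 29. Genes without annotation (1156 and 1186 in the 2 tables) stayed in the tests. Alternatives were DESeq2 1.42.0, RLE factors, no filter, a stricter filter (50 counts in 4 libraries), 1 fit per table, a replicate block, removal of the length trend (a spline of 4 df over genes above a log2 CPM of 1), the authors' scaling and leaving out each library.

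The members, lists and alternatives were chosen with earlier results of these data known. Named members were, by rule, the largest called changes per line at 5 CPM or more, those called in most lines, the lowest interaction p-values, the extremes of level per length and a fixed set of known roles, 36 in all.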

Additional observations from a re-analysis of the deposited data

Results flagged for a closer look

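Of 74 groups of 4 library values given for members, 3 held a library set far apart from the rest, where chance alone marks about 1 group in 20. DLD1 control 1 had 200.5 CPM of MRPL20, against 109 CPM in the next library and 91.0 CPM in the lowest. SW948 2-MiCit 2 had 357 CPM of MRPL12, with the next at 197 and the lowest at 165 CPM. The same library had 68.2 CPM of MRPL52, with the next at 34.4 and the lowest at 31.7 CPM. Both libraries are those with 0.728% of counts on the members.

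The response to 2-MiCit differed between lines by the interaction test (edgeR, adjusted over all genes of the table) for MRPS21 (adjusted p = 0.00408), MRPL3 (0.00452), MRPS10 (0.00673) and MRPL9 (0.00831) in HCT116, DLD1, LoVo and SW948, and for MRPL9 (0.0391) in HT29, SKCO1 and SW1417. MRPS21 and MRPL9 lay on the positive side in SW948 and on the negative side in the other lines of the first table. MRPS10 fell in LoVo, with a log2 fold change of −0.30 ± 0.06, while its estimate in HCT116 was 0.13 ± 0.05.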

How the results depend on the processing

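No member named by the rule changed direction against a call under any alternative. In HCT116 1 member was higher with the stricter filter and with the replicate block, and 31 were lower in 1 fit per table, with the share of all genes lower at 10.8%. In DLD1, 1 member was lower with DESeq2 (0.945% of genes) and 15 in 1 fit per table (3.92%). In LoVo, 10 were lower with DESeq2 (2.98%), 1 with the replicate block (0.746%) and 8 with the length trend removed and the block (2.71%). In HT29, 4 were lower with DESeq2 (4.54%), 1 with RLE factors (3.21%), 12 in 1 fit per table (7.89%), 9 with the block (7.45%), 1 with the length trend removed (3.03%) and 7 with both (7.54%). In SKCO1, 0 were higher with DESeq2, no filter, 1 fit per table or the authors' scaling, and 11 were lower with that scaling (5.24%). In SW1417, 1 was higher with the stricter filter, the block, and the length trend removed with the block. Members differing between lines of the first table numbered 6 with the block (10.4% of genes) and 46 with DESeq2 (26.6%), and in the second 0 with the stricter filter (7.05%), 6 with the block (9.73%) and 3 with DESeq2 (8.84%).

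As libraries were left out one at a time, members lower ranged from 49 to 63 in HCT116, 0 to 0 in DLD1, 0 to 20 in LoVo, 0 to 0 in SW948, 0 to 3 in HT29, 16 to 32 in SKCO1 and 0 to 3 in SW1417, and members higher from 0 to 1 in HCT116, SKCO1 and SW1417 and 0 to 0 in the others. Their medians ranged from −0.38 to −0.28 in HCT116, −0.38 to −0.18 in DLD1, −0.24 to −0.12 in LoVo, 0.07 to 0.29 in SW948 and −0.09 to −0.06 in SKCO1. Members differing between lines ranged from 7 to 45 in the first table and 0 to 2 in the second. The cause of these changes was not tested.

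The labels do not say what a replicate number shares. Same-numbered libraries deviated together with correlations from −0.50 to 0.42. In HCT116 all were positive, at 0.42, 0.07, 0.21 and 0.33 for replicates 1 to 4. Correlations were not all above 0.1 in any line, so replicate numbers were not taken as pairs. With the block, 65 members were lower in HCT116 (24.2% of all genes) and 26 in SKCO1 (12.6%). With it, 21 had a lower fold change in HCT116 and 1 in DLD1 than in SW948. Depth limits the first table more, where library totals were 13.8 to 19.4 M counts.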

Other observations

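Across the members, the log2 fold changes of different lines, which share no libraries, were set side by side as a description over genes, which are not independent replicates. Pearson's r over 76 members was 0.53 between HCT116 and DLD1, 0.37 between HCT116 and LoVo and 0.39 between HCT116 and SKCO1. It was −0.68 between DLD1 and SW948 and −0.46 between HCT116 and SW948, the lines whose members moved to opposite sides and whose slopes with transcript length had opposite signs. SKCO1 and SW1417, with small changes in both, gave 0.45. Between HT29 and SKCO1, r over 77 members was −0.70 while Spearman's rho was 0.26. The member with the fewest counts, MRPL45, was among them. It had 0.87 ± 0.60 CPM in 2-MiCit and 1.70 ± 0.60 CPM in control libraries of HT29 (SD, n = 4 each). Its log2 fold change was −0.96 in HT29 and 1.13 in SKCO1, the furthest from no change of all members in both lines. The r without MRPL45 was not computed, so the −0.70 is not read as an opposition between the lines.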
